A study of Mus musculus with 4 samples.

Results

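The cells described here are AT1 cells of the mouse lung at postnatal day 15 (P15) with high levels of Ctgf and Cyr61, set against AT1 cells of the same library with low levels. They were chosen by measured values. Within the P15 library, cells with at least 0.5 times the library's median of Ager were kept, a minimum of 165 per 10000 UMIs (unique molecular identifiers, one per captured transcript), and ranked by the sum of Ctgf and Cyr61 per 10000 UMIs. The top 20% and the bottom 20% were taken, and cells under 3000 UMIs were left out on both sides. This gave 438 high cells and 364 low cells of 2645 cells past the Ager minimum, 2940 cells in the library and 9519 in the series. The highest 529 and lowest 529 cells had lost 91 and 165 cells to the UMI minimum.

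The series holds 4 sorted libraries, 1 for each group, made with the 10x 3' single-cell chemistry. All mice were of a mixed FVB/C57BL6 strain, carried Sftpc-CreER, a Rosa26-Zsgreen reporter and a Hopx-RFP reporter, and had been given tamoxifen, whose Cre is driven from the surfactant gene Sftpc. AT1 cells at P3, P15 and P60 were sorted for red Hopx reporter and surface Pdpn and against the green lineage label and CD45, and AT2 cells at P60 were sorted for the green label and against CD45. The gate thus selects AT1 cells on Hopx and Pdpn themselves, and the sources used here do not say how many animals were pooled. Median depth ranged from 4864 to 7477 UMIs per cell over the 4 libraries, and the P15 library shared 15, 6 and 9 cell barcodes with the P3, P60 AT1 and AT2 libraries. Since each group has a single library, the differences were not checked against replicates and no test was made. Intervals in parentheses after ratios are exact 95% Poisson intervals of summed UMIs. They cover counting error only, not differences between animals.

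Ctgf and Cyr61 encode secreted matricellular proteins of the CCN family, which bind integrins and matrix and modulate growth factor signals. Both genes are widely used as readouts of YAP and TAZ, transcriptional coactivators of the Hippo pathway that act through TEAD factors and respond to stretch and cell shape. Both are also known as immediate early genes, a class that is transcribed within minutes of growth factor, mechanical or stress signals and that includes Fos, Atf3 and Egr1. AT1 cells are thin, spread epithelial cells that form the gas exchange surface, and P15 falls in the time when alveoli form. In the mm10 annotation Ctgf (current symbol Ccn2) lies on chromosome 10 from 24595442 to 24598683 on the plus strand. Cyr61 (current symbol Ccn1) lies on chromosome 3 from 145646976 to 145649981 on the minus strand.

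The bases before the start sites of 3 genes are shown because they hold, or lack, the short motifs named for the factors above. The 250 bases before each start site come from RefSeq (GRCm38.p6), read 5' to 3' on the gene's strand, at chr3:145649986-145650235 on the minus strand for Cyr61, chr4:141300971-141301220 on the plus strand for Epha2 and chr12:85473640-85473889 on the plus strand for Fos. Capitals mark matches on either strand to the TEAD motif GGAATG and the CRE motif TGACGTCA, the only searched motifs matched here.
Cyr61: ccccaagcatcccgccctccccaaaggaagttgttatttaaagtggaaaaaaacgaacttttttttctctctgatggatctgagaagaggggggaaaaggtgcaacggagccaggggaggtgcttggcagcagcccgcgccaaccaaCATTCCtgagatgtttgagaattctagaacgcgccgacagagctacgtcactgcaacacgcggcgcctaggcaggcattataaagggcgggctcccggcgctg
Epha2: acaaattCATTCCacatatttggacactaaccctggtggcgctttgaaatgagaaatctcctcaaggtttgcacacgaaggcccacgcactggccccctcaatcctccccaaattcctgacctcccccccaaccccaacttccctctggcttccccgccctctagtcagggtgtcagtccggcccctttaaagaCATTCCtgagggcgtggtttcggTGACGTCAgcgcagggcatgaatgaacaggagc
Fos: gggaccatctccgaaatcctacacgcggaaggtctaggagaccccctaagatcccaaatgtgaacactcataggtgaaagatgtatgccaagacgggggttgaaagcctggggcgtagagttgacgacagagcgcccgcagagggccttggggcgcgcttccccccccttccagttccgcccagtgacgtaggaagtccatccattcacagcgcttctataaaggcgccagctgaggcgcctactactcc
Cyr61, 1 of the genes that chose the cells, held 1 TEAD match, which began 103 bases before its start. Epha2, a receptor tyrosine kinase gene described below, held 2 TEAD matches and 1 CRE match, which began 243, 56 and 33 bases before its start. Fos held no match to these motifs, to the AP-1 motif TGANTCA or to the CArG box in this window. Matches are letters in a window and were not shown to be bound.

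The Ctgf and Cyr61 levels themselves chose the cells and are given as a description. The sum ran from 25.01 to 90.85 per 10000 UMIs in the high cells, with a median of 31.89, and reached 5.861 at most in the low cells, with a median of 3.55. At the edges of the choice, the last cell inside the top 20% stood at 25.01 and the next one outside at 24.96, and the last cell inside the bottom 20% stood at 5.861 and the next one at 5.869. Ctgf read 1434 CPM (UMIs of the gene over all UMIs of the cells, scaled to a total of 1000000) in the high and 134 in the low cells, and Cyr61 read 2018 and 212 CPM. No gap in the sum separated the chosen cells from the others at either edge.

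High cells were made up in different ways. Of the 438 high cells, 419 (95.7%) held UMIs of both genes, 4 held Ctgf alone and 15 held Cyr61 alone. Ctgf exceeded Cyr61 in 152 of them (34.7%), and 123 (28.1%) were also in the top 20% for each gene taken separately. Across 2110 cells thinned to 3000 UMIs each, the 2 genes had a Spearman rank correlation of 0.12. These cells share 1 library and the counts per cell are low, so this value is given as a description only.

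**Figure D1:**
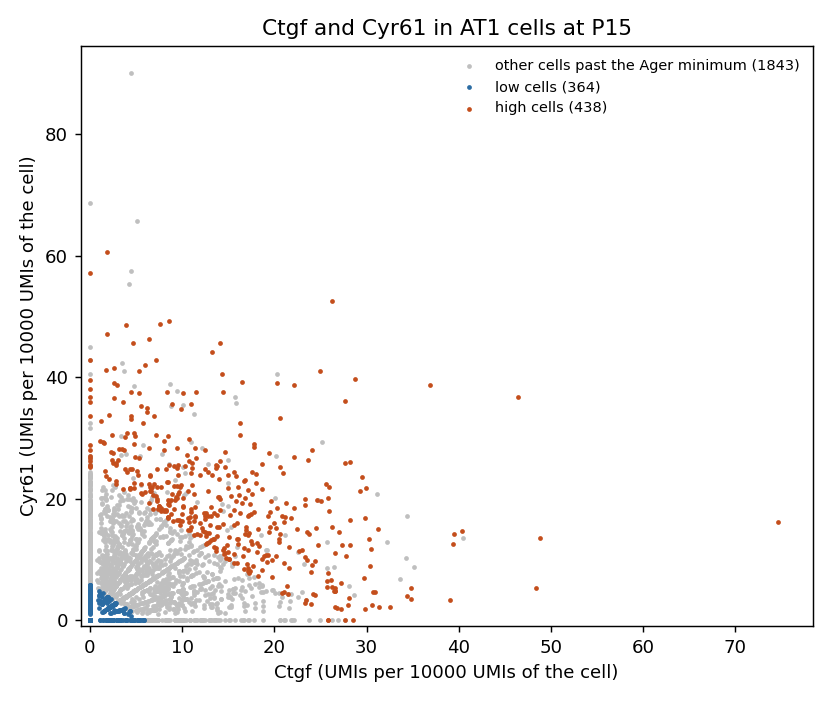
Ctgf (horizontal axis) and Cyr61 (vertical axis) per 10000 UMIs in each of 2645 P15 cells past the Ager minimum, with 438 high cells in orange, 364 low cells in blue and other cells in grey. The high cells lie along the whole diagonal edge, from cells with Cyr61 alone to cells with Ctgf alone, and grey points beyond that edge are cells under 3000 UMIs.

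Both sides carried the AT1 markers. Hopx, a homeodomain-only protein gene, read 1226 CPM in the high and 1214 in the low cells, and Pdpn, the podoplanin gene, 1318 and 1261, at ratios of 1.01 (0.958 to 1.07) and 1.04 (0.992 to 1.1). The water channel gene Aqp5 read 3885 and 3435 CPM, a ratio of 1.13 (1.1 to 1.17), and Igfbp2, an insulin-like growth factor binding protein gene, 1980 and 1676, a ratio of 1.18 (1.13 to 1.23). Ager, which set the minimum, had a median of 365 per 10000 in the high and 334 in the low cells. Of 31 genes of the AT1 identity list, all measured, 0 were at least 1.5-fold apart in either direction and 26 had a ratio above 1, with a median log2 ratio of 0.11. Over all genes measured, 46.3% had a ratio above 1 and the median was -0.02.

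The sides were close in depth. The median was 5596 UMIs per cell in the high and 5105 in the low cells, with 2208 and 2104 genes, and 1461 and 1468 genes after thinning to 3000 UMIs. Mitochondrial transcripts had medians of 2.56 and 2.85% of a cell's UMIs, and Malat1, a nuclear RNA, 6.08 and 5.56%. Ribosomal protein genes had medians of 6.29 and 7.34%. Of 88 measured ribosomal protein genes, 2 had a ratio above 1, 0 were 1.5-fold apart and the median log2 ratio was -0.25, and their part in the results below was not tested.

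A total of 3221 genes were measured, that is, had 50 CPM in the higher side and 30 UMIs over both sides. Of these, 33 were at least 1.5-fold higher in the high cells, which is 1.02% of the genes measured, and 25 were at least 1.5-fold lower, which is 0.776%. Ctgf, Cyr61 and Ager were left out of these counts. The largest ratios belonged to transcription factors of the immediate early class and to feedback genes of the MAP kinase pathway, followed by kinase, surface and matrix-modifying genes. Sgk1, Dusp6 and Anxa1 had been named as markers of these cells from the same data, so their values are a description.

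Immediate early transcription factors had the largest differences. Atf3, a stress-responsive bZIP factor on chromosome 1, read 111 CPM in the high and 20.9 in the low cells, 5.29-fold higher (3.82 to 7.5). Fos, a subunit of the AP-1 factor on chromosome 12, read 866 and 281 CPM, 3.08-fold higher (2.81 to 3.39). Its relative Fosb read 175 and 65.8 CPM, 2.66-fold higher (2.19 to 3.26). Egr1, a zinc finger factor, read 59.3 and 21.4 CPM, 2.77-fold higher (1.96 to 3.98). The 4 cells richest in Fos held 5.68% of its UMIs in the high and 8.53% in the low cells. The less abundant genes rested on fewer cells, with 8.74% and 23.8% of the Atf3 UMIs, 7.3% and 14.4% of the Fosb UMIs and 15% and 27.9% of the Egr1 UMIs in the 4 richest cells. A UMI of Egr1 was found in 22.1% of the high and 7.97% of the low cells.

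The wider immediate early list lay on the same side. All 20 measured members had a ratio above 1, 8 were at least 1.5-fold higher and 0 lower, and the median log2 ratio was 0.52. Over all genes measured, 46.3% had a ratio above 1, 1.02% were at least 1.5-fold higher, 0.776% lower and the median was -0.02. Beside the 4 genes above, the 8 were Klf4 at 1.88-fold (1.46 to 2.44), Klf6 at 1.58-fold (1.46 to 1.72), Zfp36 at 1.67-fold (1.33 to 2.09) and Maff at 1.65-fold (1.24 to 2.22). Klf4 and Klf6 encode Krüppel-like zinc finger factors, Zfp36 an RNA-binding protein that speeds mRNA decay, and Maff a small bZIP factor. Members short of the 1.5-fold mark included the AP-1 subunit genes Junb, at 248 and 174 CPM, and Jun, at 494 and 360, with ratios of 1.43 and 1.37, and Nfkbia, an inhibitor of NF-kappa B, at 620 and 421 CPM with a ratio of 1.47. Nr4a1, a nuclear receptor gene, stayed under the minimum at 31 and 11 CPM. Heat shock genes, which also respond to cell stress, had 0 of 9 measured members 1.5-fold apart, 6 with a ratio above 1 and a median of 0.10, and Hsp90aa1 read 645 and 565 CPM, a ratio of 1.14 (1.06 to 1.23).

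Feedback genes of the FGF and MAP kinase pathway had 2 of 7 measured members higher, 0 lower and a median of 0.21. Of all genes measured, 1.02% were higher and 0.776% lower by the same mark, with a median of -0.02. Dusp6, on chromosome 10 from 99263231 to 99267489, encodes a phosphatase that inactivates ERK and is itself switched on by ERK signalling. It read 182 CPM in the high and 61.4 in the low cells, 2.96-fold higher (2.43 to 3.65). Phlda1, a pleckstrin homology-like domain gene, read 207 and 117 CPM, 1.76-fold higher (1.51 to 2.06). Spry2, a further feedback inhibitor of receptor tyrosine kinases, read 84.9 and 92.8 CPM, and the receptor genes Fgfr2 and Fgfr3 read 49.2 against 38.4 and 22.5 against 35.4 CPM, all within 1.5-fold or under the minimum. Epha2, a receptor for membrane-bound ephrins, was 1.71-fold higher at 86.9 and 50.9 CPM, and Trib1, a pseudokinase gene, 1.74-fold higher at 71.4 and 40.9 CPM. The list as a whole thus held a pair of higher genes beside receptors and inhibitors that were not.

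Sgk1 was the most abundant gene past 1.5-fold. This kinase gene on chromosome 10, known as a target of glucocorticoids and as a regulator of the epithelial sodium channel, read 1135 CPM in the high and 604 in the low cells, 1.88-fold higher (1.76 to 2.01). The glucocorticoid response list had 3 of 12 measured members higher, Sgk1, Cdkn1a and Zfp36, with 0 lower, 11 with a ratio above 1 and a median of 0.35. Several of its members, Zfp36 and Nfkbia among them, also stand in the immediate early list. Of all genes measured, 1.02% were at least 1.5-fold higher, 46.3% had a ratio above 1 and the median was -0.02. Tsc22d3, a classical glucocorticoid target, read 1338 and 1219 CPM with a ratio of 1.1, Klf9 read 332 and 263 CPM with a ratio of 1.26, and Per1 read 68.3 and 59.4 CPM with a ratio of 1.15. Cdkn1a, a cyclin-dependent kinase inhibitor gene, read 152 and 99.8 CPM, 1.52-fold higher (1.28 to 1.82).

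Genes of the cell surface and the matrix made up much of the rest. Plod2, a lysyl hydroxylase that prepares collagen for cross-linking, read 373 and 228 CPM, 1.63-fold higher (1.46 to 1.83). Tm4sf1, a four-pass membrane protein gene, was 1.68-fold higher at 58.6 and 34.9 CPM, and Scel, the gene of the cornified envelope precursor sciellin, 1.52-fold higher at 327 and 216 CPM. Bdnf, a neurotrophin gene, read 285 and 182 CPM, 1.57-fold higher (1.38 to 1.78), and Krtap17-1, a keratin-associated protein gene, 186 and 96.3 CPM, 1.93-fold higher (1.63 to 2.3). Otud1, a deubiquitinase gene, was 1.57-fold and Klf5 1.53-fold higher. Basement membrane and matrix genes had 0 of 17 measured members 1.5-fold apart, 15 with a ratio above 1 and a median of 0.11, with Timp3, a metalloproteinase inhibitor gene, at 2947 and 2219 CPM, a ratio of 1.33 (1.28 to 1.38), and the collagen IV gene Col4a1 at 1131 and 902, with a ratio between 1.18 and 1.33. Caveola genes had 0 of 7 apart and a median of 0.09, with Cav1 at 2999 and 2360 CPM, a ratio of 1.27 (1.23 to 1.32). Over all genes measured, 46.3% had a ratio above 1 and the median was -0.02. Anxa1, a phospholipid-binding annexin gene on chromosome 19, read 1357 and 1047 CPM, a ratio of 1.3 (1.23 to 1.37), short of 1.5-fold, and the annexin and S100 list had a median of -0.07.

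Other targets of YAP and TAZ were mostly within 1.5-fold. Apart from Ctgf and Cyr61, 13 members of the list were measured, 11 had a ratio above 1, 1 was at least 1.5-fold higher and 0 lower, with a median of 0.16. Over all genes measured, 46.3% had a ratio above 1, 1.02% were at least 1.5-fold higher and the median was -0.02. The 1 gene was Ankrd1, an ankyrin repeat gene, at 80.3 and 52.4 CPM, 1.53-fold higher (1.21 to 1.96). Fjx1 read 295 and 215 CPM, a ratio of 1.37 (1.22 to 1.54), and the tissue factor gene F3 377 and 289, a ratio of 1.31 (1.18 to 1.45). Amotl2, a feedback inhibitor of YAP, read 209 and 206 CPM, and Wwc1, the gene of the Hippo regulator Kibra, 246 and 262. The Hippo pathway core had 0 of 9 measured members apart and a median of 0.07, and targets of SRF and MRTF, which answer actin dynamics, had 0 of 13 apart and a median of 0.03. TGF-beta and BMP response genes had 0 of 11 apart and a median of 0.11, secreted growth and guidance cues 0 of 12 and 0.08, and interferon and antigen presentation genes 0 of 10 and 0.02. AT1 transition and injury markers had 2 of 10 higher, Cdkn1a and Tm4sf1, with 0 lower and a median of 0.16.

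**Figure D2:**
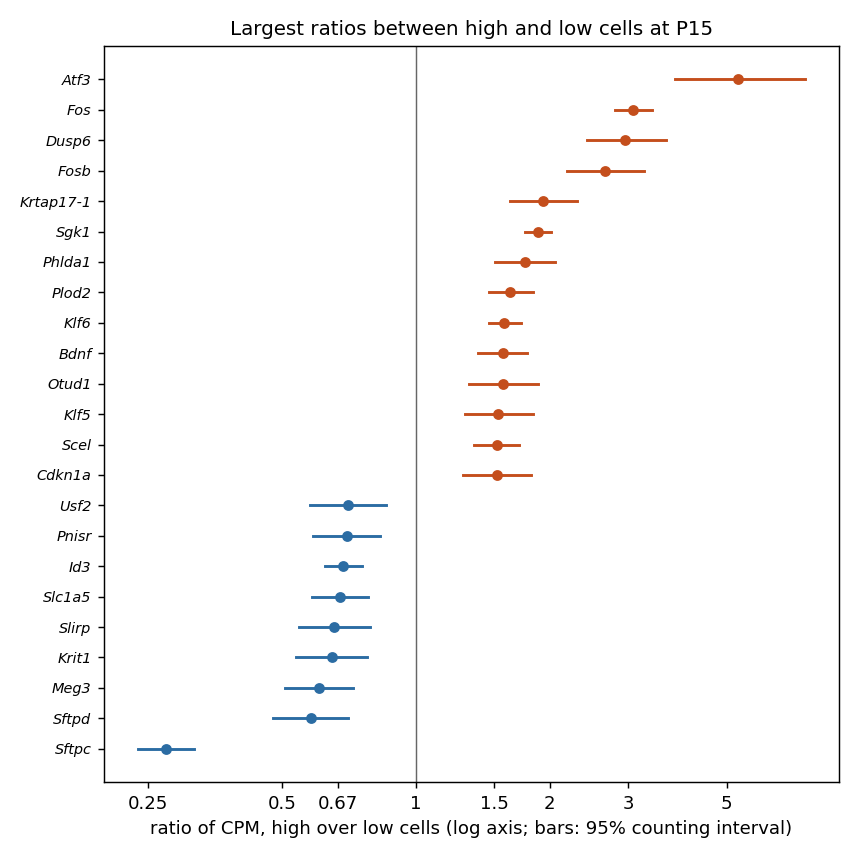
Ratio of CPM in high over low cells at P15 (horizontal log axis) for genes with the largest ratios in each direction at 100 CPM or more, with exact 95% counting intervals as bars. Atf3 at 5.29, Fos at 3.08, Dusp6 at 2.96 and Fosb at 2.66 stand apart from the other higher genes, which lie between 1.52 and 1.93, and Sftpc at 0.275 stands apart among the lower ones.

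The share of the 33 higher genes with each motif in the 250 bases before a start site is given as a description. Of these genes, 24 were in the RefSeq table. The TEAD motif was present for 7 of the 24 (29.2%), among them Sgk1, Ankrd1, Bdnf and Epha2, and for 14.4% of all 27025 genes of the table. The CRE motif was present for 5 of 24 (20.8%), namely Epha2, Maff, Rcan1, Senp2 and Slc25a25, and for 1.77% of all genes. The AP-1 motif was present for 3 of 24 (12.5%) and for 7.82% of all genes, and the CArG box for 1 of 24 (4.17%), Zfp36, and for 1.62% of all genes. A gene with several start sites was counted when any of its windows held the motif. The genes of the table were not limited to the 3221 measured in these cells, and the share over those was not computed.

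Among the lower genes at 100 CPM or more, the surfactant genes Sftpc and Sftpd had the smallest ratios, which rested in part on single cells. Sftpc, the surfactant protein C gene of AT2 cells, read 98.1 CPM in the high and 357 in the low cells, a ratio of 0.275 (0.237 to 0.318). However, 1 low cell held 386 of its 715 UMIs there, and without the richest cell of each side the ratio was 0.569 (0.48 to 0.674). Sftpd likewise read 72.5 and 125 CPM, a ratio of 0.582 that became 0.679 (0.551 to 0.836) without the richest cells. That is above the 0.583 (0.484 to 0.701) of Meg3, given below, when computed the same way. The AT2 identity list summed to 536 CPM in the high and 1025 in the low cells, and 33.1% and 35.7% of the cells held 3 or more of its 19 listed markers. The low sum includes the 386 Sftpc UMIs of 1 cell, and a UMI of Sftpc was found in 33.1% of the high and 28.3% of the low cells. Without the richest cell of each side, Sftpb had a ratio of 0.888 (0.518 to 1.53) and Sftpa1 0.642 (0.331 to 1.23). Id3, an inhibitor of differentiation gene that answers BMP signals, read 304 and 442 CPM, a ratio of 0.688 (0.624 to 0.758), within 1.5-fold. The glutamine transporter gene Slc1a5 read 136 and 201 CPM, a ratio of 0.677 (0.585 to 0.783), and Meg3, a long noncoding RNA, 89.6 and 148 CPM, a ratio of 0.607 (0.509 to 0.723).

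Markers listed for other cell types were present on both sides, and 181 of 438 high cells (41.3%) and 156 of 364 low cells (42.9%) held 3 or more markers of some other type. The AT2 list, above, made up most of these. The fibroblast list summed to 64.8 CPM in the high and 62.4 in the low cells. The pericyte or smooth muscle list was lower in level but farther apart, at 26.8 and 12.5 CPM. The endothelial list summed to 302 and 345 CPM, of which Esam gave 289 and 292, and the immune list to 220 and 216, of which Cd74 gave 204 and 188. Club and ciliated lists summed to 309 and 325 and to 2588 and 2390 CPM, with Scgb1a1 at 266 and 294 in the former and Tppp3 and Sec14l3 giving most of the latter. A UMI of Tppp3 was found in 98.4% of the high and 95.9% of the low cells, and of Sec14l3 in 98.6% and 97.8%. Sec14l3 also stands in the AT1 identity list, so these genes do not mark ciliated cells here. The mesothelial list summed to 1314 and 1266 CPM, with Msln at 334 and 396, and 18 and 11 cells held 3 or more of its markers. Cells with 3 or more fibroblast markers numbered 6 of 438 and 1 of 364. Without all cells that held 3 markers of any other type, 257 high and 208 low cells remained. Of 3241 genes measured there, 45 were higher (1.39%), among them 23 of the 33. The part of these markers in the other results was not tested.

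Most of the leading genes read higher at each step across the range of Ctgf and Cyr61, by value alone. When all cells of 3000 UMIs or more were put into 5 bins by the 20% steps of the sum (364, 427, 446, 435 and 438 cells), Fos read 281, 421, 477, 607 and 866 CPM from the lowest to the highest bin. Atf3 read 20.9, 32.9, 40.3, 61.6 and 111 CPM, and Dusp6 61.4, 91.2, 99.4, 134 and 182. Sgk1 read 604, 679, 756, 870 and 1135 CPM and Plod2 228, 284, 295, 311 and 373. Each of these 5 genes was higher in each bin than in the one below it. Of 14 of the genes with the largest higher ratios, 14 were highest in the top bin and 10 were higher at each step. The exceptions were Krtap17-1, which read 96.3, 70.8, 108, 118 and 186 CPM, Klf5 and Otud1, at 114 and 105 and at 106 and 104 CPM in bins 2 and 3, and Bdnf, level at 210 CPM in those bins. Some steps were small. Phlda1 read 117 and 118 CPM in the lowest bins and Cdkn1a 151 and 152 in the highest, where the counting intervals of each overlapped. The intervals of Plod2 also overlapped between neighbouring bins from bin 2 to bin 4. These 14 genes were picked by the ratio of the top bin to the lowest, so their place in the top bin follows largely from that choice. The same count over all genes was not made. Anxa1 was level over the lowest bins, at 1047 and 1045 CPM, and stood at 1198, 1209 and 1357 above them. Id3 read 442, 384, 340, 363 and 304 CPM, lower at the top but without a step at each bin. Against all other cells past the Ager minimum, in place of the low cells, 8 of 3146 genes measured (0.254%) were at least 1.5-fold higher and 1 lower (0.0318%). All of them were among the 33 and 25 above.

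**Figure D3:**
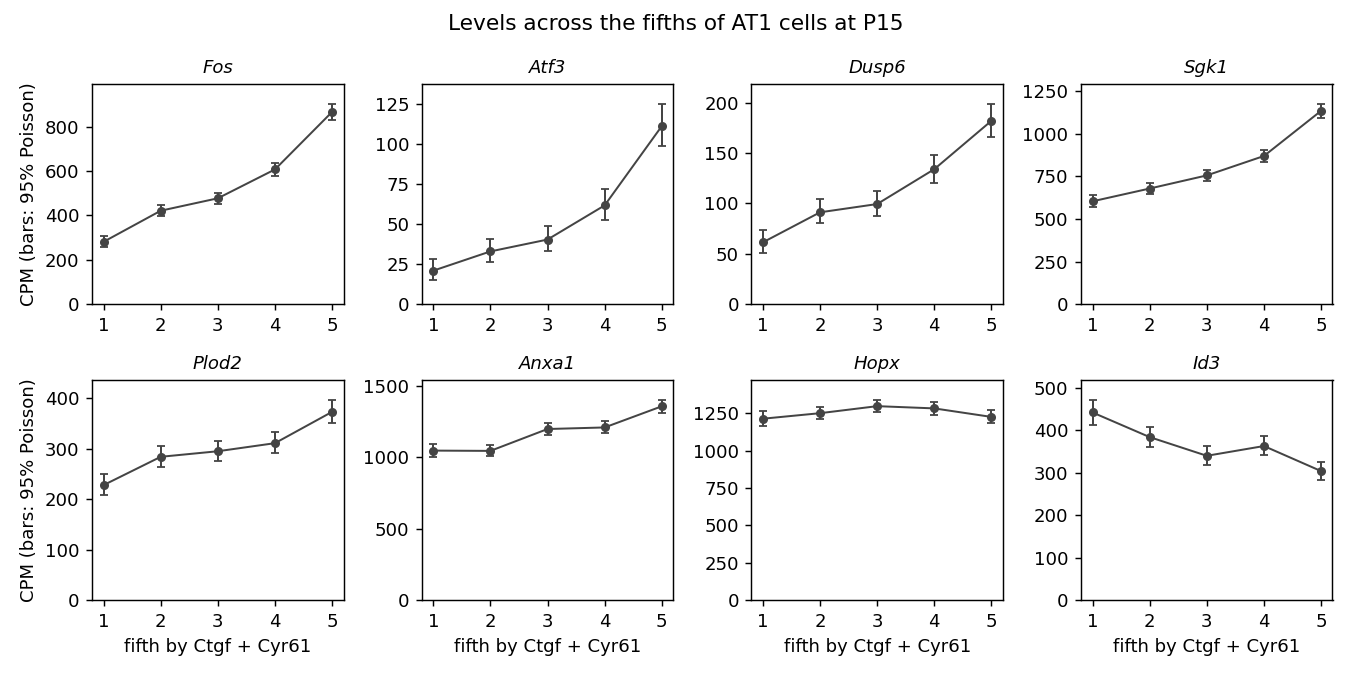
Summed CPM (vertical axes, from 0) with exact 95% Poisson intervals in 5 bins of P15 AT1 cells ordered by Ctgf plus Cyr61 (horizontal axes, 1 lowest and 5 highest) for 8 genes. Fos goes from 281 to 866 CPM and Dusp6 from 61.4 to 182, Hopx stands at 1214 and 1226 at the ends, and Id3 goes from 442 to 304.

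The ratios were not alike when cells were split by each gene alone. When the same rule was applied to each gene alone, 431 cells were high by Ctgf and 439 by Cyr61, and 123 cells were in both (28.5% and 28%). Split by Ctgf, whose low side held no UMI of it, Cyr61 read 1220 CPM in the high and 850 in the low cells, a ratio of 1.44 (1.35 to 1.52). Split by Cyr61, Ctgf read 807 and 519 CPM, a ratio of 1.55 (1.44 to 1.68). Each gene was thus higher where the other was high, by far less than the gene used for the split.

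Immediate early and feedback genes had larger ratios by Cyr61 than by Ctgf. By Cyr61, Fos was 3.41-fold higher (3.1 to 3.77), Fosb 3.9-fold (3.12 to 4.92), Egr1 3.65-fold (2.53 to 5.41) and Atf3 6.65-fold (4.68 to 9.71). By Ctgf, the same genes had ratios of 1.27 (1.17 to 1.37), 1.36 (1.12 to 1.65), 1.11 (0.796 to 1.55) and 1.56 (1.19 to 2.06). Dusp6 had a ratio of 2.87 (2.35 to 3.52) by Cyr61 and 1.45 (1.22 to 1.74) by Ctgf, and Phlda1 2.1 (1.79 to 2.48) and 0.943 (0.812 to 1.1), so the direction of Phlda1 turned. The counting intervals of Fos, Fosb, Egr1, Atf3, Dusp6 and Phlda1 did not overlap between the splits, and no test over samples could be made. The splits share 123 high cells of 1 library, so their ratios are not independent. These intervals therefore do not measure the difference between the splits.

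Several surface, matrix and growth factor binding genes had larger ratios by Ctgf than by Cyr61, while others went the other way. Igfbp2 had a ratio of 1.59 (1.51 to 1.66) by Ctgf and 0.944 (0.903 to 0.987) by Cyr61. Tm4sf1 had 2.04 (1.53 to 2.75) and 1.2 (0.913 to 1.6), Plod2 1.7 (1.52 to 1.9) and 1.15 (1.03 to 1.28), Scel 1.54 (1.38 to 1.74) and 1.14 (1.01 to 1.28), and Fjx1 1.61 (1.43 to 1.82) and 1.14 (1.01 to 1.29). Oasl2, an interferon-induced gene, had 1.65 (1.23 to 2.24) and 0.809 (0.574 to 1.14). Timp3 and Cav1 had 1.37 (1.32 to 1.42) and 1.26 (1.21 to 1.3) by Ctgf and both 1.08 (1.04 to 1.12) by Cyr61. Among those with larger ratios by Cyr61, F3 had 1.08 (0.972 to 1.19) by Ctgf and 1.32 (1.18 to 1.47) by Cyr61. Anxa1 had 1.14 (1.08 to 1.21) and 1.29 (1.22 to 1.36), and the secreted growth factor gene Hbegf 0.882 (0.779 to 0.999) and 1.58 (1.38 to 1.8). Id3 had 0.644 (0.582 to 0.713) by Ctgf and 0.872 (0.791 to 0.961) by Cyr61. Sgk1 was higher under both, at 1.76 (1.65 to 1.89) and 1.48 (1.39 to 1.58). By Ctgf, 17 of 3186 genes measured (0.534%) were at least 1.5-fold higher, and by Cyr61, 28 of 3211 (0.872%). Of these, 1 was in both, Atf3, which is 5.88% of the former and 3.57% of the latter. Some genes lay just under the 1.5-fold mark in 1 split, such as Sgk1 at 1.48 by Cyr61 and Dusp6 at 1.45 by Ctgf. The number shared thus depends on that mark. Of the 33 genes above, 5 were among the 17 and 17 among the 28.

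**Figure D4:**
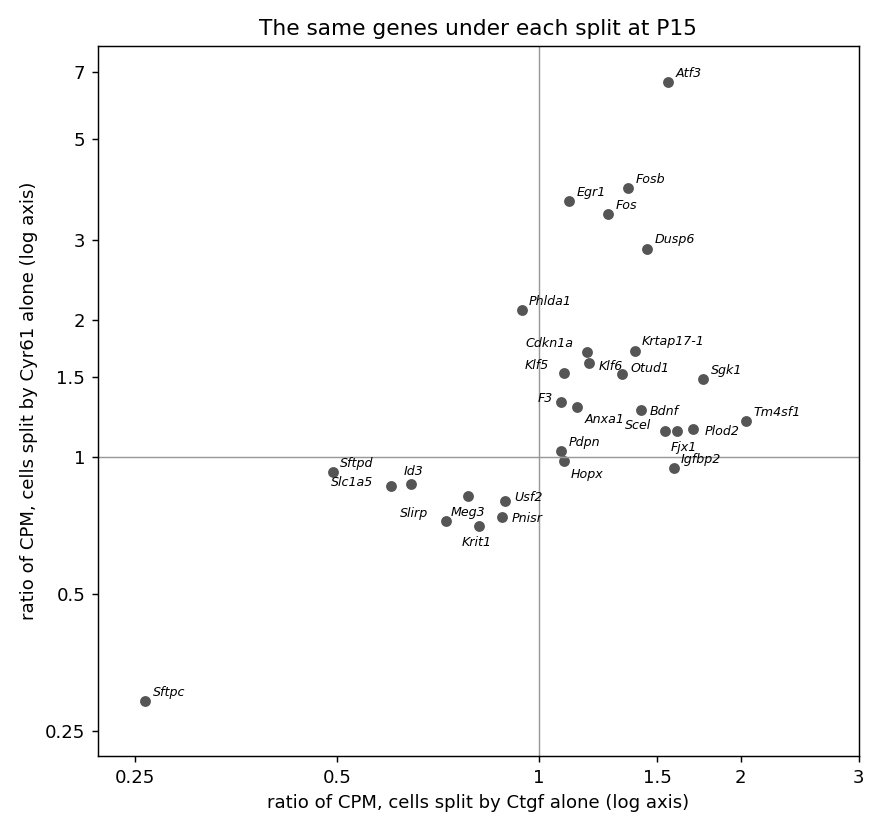
Ratio of CPM in high over low P15 cells when cells are split by Ctgf alone (horizontal log axis) or by Cyr61 alone (vertical log axis), 1 point per gene. Atf3, Fosb, Egr1, Fos and Dusp6 lie high on the Cyr61 axis, at 2.87 or more, while Tm4sf1, Sgk1, Plod2, Fjx1 and Igfbp2 lie at 1.59 or more on the Ctgf axis.

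Cells without a UMI of 4 immediate early genes gave a further view. A UMI of Fos, Fosb, Atf3 or Egr1 was found in 398 of 438 high cells (90.9%) and 226 of 364 low cells (62.1%), and after thinning to 3000 UMIs in 83.1% (79.3 to 86.5) and 48.6% (43.4 to 53.9), by exact Clopper-Pearson intervals. Leaving these cells out kept 40 high and 138 low cells. The 40 high cells leaned to Ctgf, at 1930 CPM of Ctgf and 1452 of Cyr61, against 1434 and 2018 over all 438. Plod2 had a ratio of 1.7 in the split by Ctgf alone, and the part of this shift in the ratios below was not tested. In the 40 high and 138 low cells Sgk1 read 757 and 536 CPM, a ratio of 1.41 (1.15 to 1.73), and Plod2 433 and 209, a ratio of 2.07 (1.55 to 2.76). Ankrd1 read 96.8 and 40.3 CPM on 17 and 27 UMIs, a ratio of 2.4 (1.23 to 4.57). Dusp6 read 56.9 and 32.8 CPM on 10 and 22 UMIs, a ratio of 1.73 (0.733 to 3.82), which at this depth could not be told from 1. Klf6 had a ratio of 0.897 (0.664 to 1.2), which could not be told from 1 either. Since the cells were kept for lacking 4 immediate early transcripts, the level of that list in them is set by the choice.

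Genes were also ranked by how closely they followed Ctgf plus Cyr61 from cell to cell, over 2110 thinned cells and 1619 genes. The most alike were Fos with a Spearman rank correlation of 0.24, Sgk1 with 0.21, Fosb with 0.17, Dusp6 and Pxdc1 with 0.15, Timp3 and Krtap17-1 with 0.14, and Cav1, Klf6 and Rgcc with 0.13. These values are weak, and all cells share 1 library and depth. Pxdc1 and Rgcc, which were not among the 33, read 1345 and 975 CPM and 4797 and 3873 CPM in the high and low cells.

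Ctgf and Cyr61 were present in the AT1 libraries at each age and close to absent from the AT2 library, which was made at P60 only. Summed over cells past each library's own Ager minimum, Ctgf read 375 CPM at P3, 654 at P15 and 395 at P60, and Cyr61 929, 988 and 714 CPM. In all AT2 cells they read 1.73 and 10.9 CPM. AT2 lungs were digested without the elastase and collagenase used for AT1 lungs, so cell type and digestion cannot be told apart here. After thinning to 3000 UMIs, a UMI of both genes was found in 41.8% (40 to 43.6) of cells at P3, 59.1% (57 to 61.3) at P15, 42.8% (39.6 to 46) at P60 and 0.054% (0.00137 to 0.3) of AT2 cells, whose library had a median depth of 4864 UMIs. P15 was thus the age with the most Ctgf in these libraries, while age and library cannot be told apart. In the 295 P15 cells under the Ager minimum, Ctgf read 260 and Cyr61 1059 CPM, so Cyr61 was no lower there than the 988 CPM of the cells past the minimum.

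The same rule was then applied to the other AT1 libraries, whose cells had no part in choosing the P15 genes. It gave 579 high and 579 low cells at P3 and 177 and 185 at P60. At P3, 40 of 2933 measured genes were at least 1.5-fold higher in the high cells (1.36%) and 16 lower (0.546%). At P60, 64 of 3344 were higher (1.91%) and 35 lower (1.05%). Of the 33 genes higher at P15, 22 were measured at P3, and 21 of these had a ratio above 1 there, as had 52.4% of all genes measured. Their median log2 ratio was 0.65, against 0.01 over all. At P60, 22 were measured and 18 had a ratio above 1, as had 45.6% of all genes, with a median of 0.51 against -0.02.

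Genes past 1.5-fold in both libraries numbered 13 for P15 and P3, which is 39.4% of the P15 genes and 32.5% of those at P3, and 8 for P15 and P60, which is 24.2% and 12.5%. The genes past it at all 3 ages were Atf3, Egr1, Fos, Fosb and Phlda1. Fos read 3447 and 1796 CPM in high and low cells at P3, a ratio of 1.92 (1.87 to 1.97), and 421 and 29.2 CPM at P60, a ratio of 14.4 (10.2 to 21). Atf3 read 695 and 222 CPM at P3, a ratio of 3.12 (2.9 to 3.36), and 96.3 and 7.73 at P60, a ratio of 12.5 (6.34 to 27.9). Phlda1 had ratios of 1.63 (1.46 to 1.82) at P3 and 2.12 (1.43 to 3.21) at P60. The level of Fos thus ran from P3 down to P60 on both sides, with the low cells at P3 above the high cells at P15.

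The feedback gene Dusp6 was higher at P3 as well, at 90.2 and 40.6 CPM, a ratio of 2.22 (1.85 to 2.66). At P60 it was under the minimum, with 30 and 4 UMIs. Sgk1 was less abundant at the other ages, at 81 and 57.1 CPM at P3 and 275 and 194 at P60, with ratios of 1.42 (1.2 to 1.67) and 1.41 (1.19 to 1.68). Scel had 1.36 (1.16 to 1.6) at P3 and 1.74 (1.45 to 2.09) at P60. Anxa1 had 1.08 (1.01 to 1.14) and 1.29 (1.18 to 1.41). Ankrd1 read 361 and 181 CPM at P60, a ratio of 1.99 (1.68 to 2.36), and the YAP and TAZ target F3 had 1.65 (1.56 to 1.73) at P3 and 1.85 (1.58 to 2.16) at P60, where it had been within 1.5-fold at P15. Igfbp2, at 1.18 at P15, had 2.34 (2.21 to 2.48) at P3 and 1.64 (1.54 to 1.74) at P60.

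As a list, immediate early genes had 16 of 22 measured members higher at P3 and 8 of 18 at P60, with 0 lower at either age and medians of 0.66 and 0.55. Over all genes measured, 1.36% were higher at P3 and 1.91% at P60, 0.546% and 1.05% were lower, and the medians were 0.01 and -0.02. YAP and TAZ targets had 3 of 15 higher at P3 (F3, Fjx1 and Nt5e) and 2 of 14 at P60 (Ankrd1 and F3), with 0 lower and medians of 0.21 and 0.24. The glucocorticoid list had 2 of 11 and 1 of 9 higher, with medians of 0.11 and -0.04. Ribosomal protein genes had medians of -0.10 and -0.14, below 0 as at P15.

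Few of the lower genes were past 1.5-fold at the other ages. Of the 25 genes lower at P15, 20 were measured at P3 and 11 had a ratio below 1 there, and 9 of 11 measured at P60 did. Of all genes measured, 52.4% at P3 and 45.6% at P60 had a ratio above 1, so the P3 count lay near the share over all genes. The median log2 ratio of the lower genes was -0.05 at P3, against 0.01 over all, and -0.17 at P60, against -0.02. The pair past 1.5-fold at both P15 and P3 was Sftpc and Sftpd, and 0 were past it at both P15 and P60. Sftpc read 756 and 2034 CPM in high and low cells at P3, a ratio of 0.372 (0.358 to 0.387), and 185 and 228 at P60, a ratio of 0.813 (0.676 to 0.976). At P3 the AT2 identity list had 7 of 10 measured members lower, against 0.546% of all genes. It summed to 1656 CPM in the high and 3620 in the low cells, and the immune list to 150 and 569. The mesothelial and ciliated lists lay the other way, at 1477 and 1315 and at 1638 and 1582 CPM. The part of cells of other types in the P3 ratio of Sftpc was not tested. Id3 had ratios of 1.08 (1.03 to 1.12) at P3 and 1.18 (0.992 to 1.41) at P60, on the other side of 1 from P15. Whether these ratios differ between ages beyond animals and libraries was not tested.

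**Figure D5:**
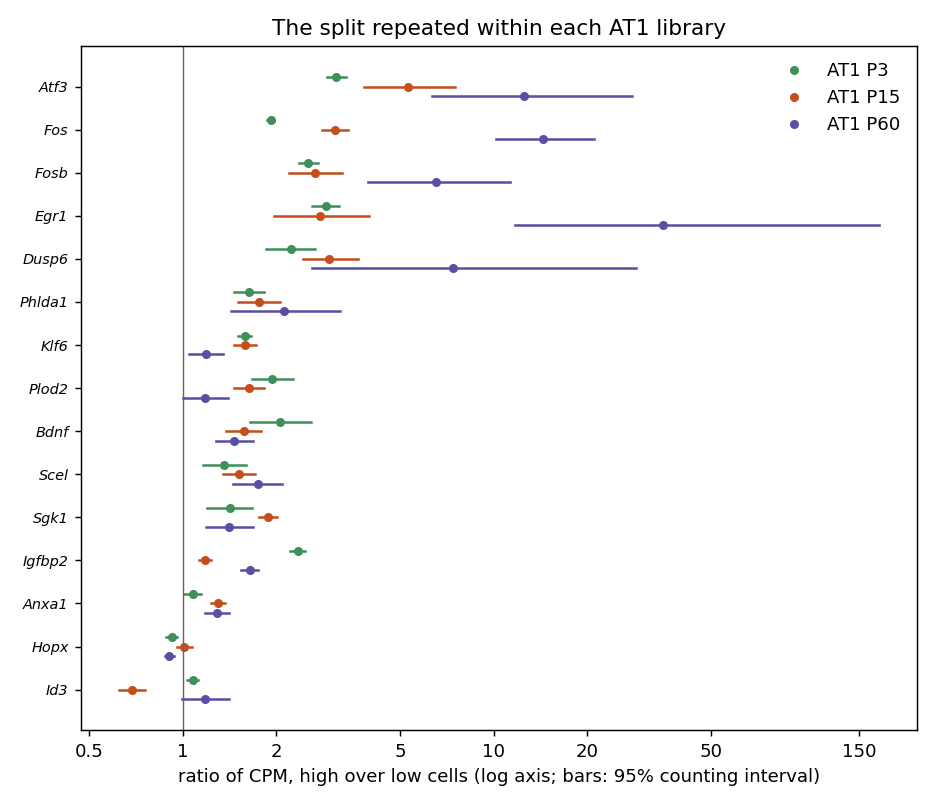
Ratio of CPM in high over low cells (horizontal log axis) for 15 genes in the AT1 libraries at P3 (green), P15 (orange) and P60 (purple), each split by its own cells, with exact 95% counting intervals as bars. Atf3, Fos, Fosb, Egr1, Dusp6 and Phlda1 lie above 1 at each age, with wide bars at P60 where the low cells held few UMIs, and Id3 lies below 1 at P15 only.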

How the data were processed

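The deposited values are natural logs of 1 plus UMIs scaled by the authors to 10000 per cell, as the values show. The tools were Cell Ranger 1.3.1 with Seurat 2.0.0, and the builds listed mm10 and hg19, per the submitters' processing notes. Unlogging gave whole UMIs for 100% of values within a tolerance of 0.05. UMIs were summed per side with Python 3.11.15, NumPy 2.4.6 and SciPy 1.17.1 and given as CPM, with ratios and exact conditional Poisson intervals at 95%. Genes were counted by size alone, at 1.5-fold, 50 CPM and 30 UMIs. Thinning drew each cell down to 3000 UMIs at random. No doublet caller was run. The split was not applied to AT2 cells, most of which held no UMI of either gene.

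The members, the marker genes and the gene lists were chosen with earlier results of these data known. Genes were named by a rule: the 15 largest higher and 10 largest lower ratios at 100 CPM and 100 UMIs, without ribosomal, mitochondrial, haemoglobin and provisional symbols, then up to 4 per list at 20 CPM, the markers and the 10 most alike genes. Further genes past 1.5-fold, among them Epha2, Trib1, Klf4, Maff, Rcan1 and members named by CPM alone, were named after their values were seen. Of 21 alternatives, 3 were added after the data were seen. Some genes and 1 gene list that the rule or the plan names are not reported here, in text or figures. The ratios and intervals were tested on simulated counts.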

Additional observations from a re-analysis of the deposited data

Results flagged for a closer look

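Meg3, a maternally expressed long noncoding RNA, had a ratio of 0.607 in high over low cells at P15 and 1.37 at P3, on opposite sides of 1. Tm4sf1, a four-pass membrane protein gene, had a ratio of 1.68 at P15 and 0.501 at P3, where it read 5.77 and 11.5 CPM. Both were picked because the 2 libraries went opposite ways by at least 0.32 on the log2 scale, and the difference between the ages was not tested.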

How the results depend on the processing

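The 4 counts below are, in order, the genes at least 1.5-fold higher in the P15 high cells (33), those lower (25), and those higher both at P15 and at P3 (13) or P60 (8). They were 87, 109, 25 and 15 with 10% of cells on each side, 19, 8, 7 and 5 with 30%, and 170, 211, 52 and 31 with no Ager minimum, where cells of other types entered and Tm4sf1 turned to a ratio of 0.53. They were 1038, 1301, 178 and 193 with no filter on low counts, 222, 218, 44 and 47 at a log2 ratio of 0.32 in place of 0.58, 5, 1, 4 and 4 at 2-fold, 15, 8, 6 and 4 at 100 CPM and 100 UMIs, and 8, 1, 6 and 5 against all other cells. Under the main rule the first 2 counts were 1.02% and 0.776% of 3221 genes measured. With 10% of cells they were 2.61% and 3.27%, with 30% of cells 0.598% and 0.252%, and with no Ager minimum 5.09% and 6.32%. With no filter they were 8.99% and 11.3% of 11541 genes, and at 100 CPM and 100 UMIs 0.88% and 0.469% of 1704. At a log2 ratio of 0.32 they were 6.89% and 6.77%, and at 2-fold 0.155% and 0.031%. The shared counts have no such share here.

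The genes higher numbered 17 (0.534% of those measured) when cells were split by Ctgf alone, with 6 also at P3 and 4 at P60. When values were thinned, 64 were higher (1.95%) and 49 lower (1.5%). The genes lower numbered 10 (0.311% of those measured) when split by Cyr61 alone, 15 (0.469%) with no UMI minimum and 38 (1.17%) with at least 5000 UMIs. They numbered 45 (1.21%) without ribosomal, mitochondrial, haemoglobin and nuclear RNA in the total and 48 (1.48%) without cells holding 3 markers of another type. Genes shared with P3 numbered 20 with Ager at the full median and 7 when the split was thinned too. Genes shared with P60 numbered 4 without cells holding 3 markers of another type and 5 without the deepest 5% of cells. Median-of-ratios scaling and the mean of per-cell CPM kept each of these counts within 1.5 times.

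The 8 immediate early members higher became 1 split by Ctgf alone, 15 at a log2 ratio of 0.32 and 4 at 2-fold, at 100 CPM and 100 UMIs and against all other cells. Split by Ctgf alone, the medians of FGF and MAPK feedback genes and of AT1 transition and injury markers turned to -0.03 and -0.12 and Phlda1 to 0.943. Split by Cyr61 alone, those of the TGF-beta and BMP response and of basement membrane genes turned to -0.05 and -0.09. Without cells with a UMI of Fos, Fosb, Atf3 or Egr1, 40 high cells were left. Of 3391 genes measured, 365 were higher (10.8%) and 371 lower (10.9%), and 19 genes were shared with P60. The higher genes included 1 immediate early member, of a list whose own genes chose these cells. There the medians of immediate early, glucocorticoid, AT1 transition and mitochondrial genes turned to -0.15, -0.04, -0.02 and 0.28, and the ratios of Klf6, Klf5, Cdkn1a and Sftpd to 0.897, 0.971, 0.954 and 1.29. The causes of these changes were not tested. No paired analysis was possible because each group has 1 library, and for the same reason no library could be left out. Depth limits genes under 50 CPM.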
